A study of Gallus gallus and Dromaius novaehollandiae with 40 samples.

Results

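The SALL genes (spalt-like genes, after the fly gene spalt) encode large nuclear zinc finger proteins, and the expression of SALL1, SALL3 and SALL4 is described here in the forelimb-level mesoderm of emu (Dromaius novaehollandiae) and chick (Gallus gallus) embryos before a limb bud is visible. The members were taken by symbol, as the rows SALL1, SALL3 and SALL4 among 12338 gene rows. The rule used none of their values, but the members were chosen with earlier results of these data known. All 3 were counted in every library and passed the low-count filter in both species. SALL2, the other family member of vertebrates, was not analysed here.

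SALL proteins bind DNA through paired zinc fingers and, in mammalian cells, repress genes by recruiting the NuRD complex, a histone deacetylase and nucleosome remodelling machine, through a short motif at the start of the protein. In humans, loss of 1 SALL4 copy gives malformations of the forearm and thumb, and loss or truncation of 1 SALL1 copy gives malformed thumbs, ears and kidneys. In the mouse, Sall4 acts with Tbx5 in the forelimb field and Sall1 with Sall3 in the autopod, and Sall4 is also part of the network that keeps embryonic stem cells undifferentiated. In human cells, thalidomide directs the cereblon ubiquitin ligase to SALL4, which is then degraded.

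RNA-seq read counts per gene were available for 17 early libraries, 8 of emu and 9 of chick. The tissues were somatopleure (the outer layer of the split lateral plate, from which the limb bud grows; emu libraries 13, 53 and 5, chick libraries 15, 60 and 63), splanchnopleure (the inner layer, on the gut side; emu libraries 6 and pool, chick libraries 50, 61 and 64) and unsplit lateral plate mesoderm (emu libraries 1, 23 and 8, chick libraries 30, 31 and 32). Embryos carried no treatment or allele named in the labels, and stages follow Hamburger and Hamilton (HH). Somatopleure and splanchnopleure are labelled HH13 and lateral plate HH10, except that emu somatopleure 13 is labelled HH10 and emu lateral plate 1 is labelled HH13, so tissue and stage can hardly be told apart in any comparison with the lateral plate. The study compares these tissues between both birds to ask how the delayed, small forelimb of the emu arises. The library titled pool may hold more than 1 embryo, and nothing states that other libraries came from separate embryos, so p-values measure the spread between these libraries only.

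Libraries held 5061393 to 8601471 counts. Levels are CPM, read counts scaled to a common library size with TMM factors, and they are not divided by gene length, so they are compared between tissues for 1 gene, and neither between genes nor between species. Markers of other cell types differed between groups. The summed level of 9 somite and presomitic markers was 24.3 to 46.1 CPM in emu somatopleure, 37.9 to 60.7 CPM in emu splanchnopleure and 53.9 to 102 CPM in emu lateral plate, with library 1 highest. In the chick the same sum was 54.6 to 67.2 CPM in somatopleure, 94.4 to 107.8 CPM in splanchnopleure and 200.0 to 646 CPM in lateral plate, where library 30 was highest and libraries 31 and 32 had 200.0 and 318 CPM. No marker of that list was at 0 throughout a tissue of either bird, and MEOX2, PAX3 and MSGN1 were each at 0 in 1 or 2 libraries of some tissues. The sum of 9 somatic mesoderm markers was 147, 145 and 352 CPM in emu somatopleure 13, 53 and 5. It was 18.6 to 97.1 CPM in emu splanchnopleure and 90.3 to 136 CPM in emu lateral plate, where ALX1 was at 0 in every library. In the chick it was 854 to 1124 CPM in somatopleure, 29.8 to 142 CPM in splanchnopleure and 160 to 295 CPM in lateral plate. The sum of 8 splanchnic mesoderm markers was 482 to 774 CPM in emu somatopleure, 865 to 888 CPM in emu splanchnopleure and 252 to 515 CPM in emu lateral plate. In the chick that sum was 305 to 382, 604 to 787 and 270 to 551 CPM in the same tissues. Endothelial markers, 14 in number and none of them at 0, summed to 247 to 593 CPM in emu somatopleure, 1083 to 2206 CPM in emu splanchnopleure and 531 to 658 CPM in emu lateral plate. Their sums in the chick were 256 to 401 CPM in somatopleure, 1102 to 1616 CPM in splanchnopleure and 988 to 1274 CPM in lateral plate. The sum of 10 endoderm markers was 299 to 414 CPM in emu somatopleure, 323 to 334 CPM in emu splanchnopleure and 316 to 445 CPM in emu lateral plate. In the chick it was 138 to 201, 617 to 764 and 360 to 463 CPM in the same tissues, without overlap. In each chick somatopleure library 2 or 3 of these endoderm markers were at 0. The part of these markers in the SALL differences was not tested.

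All 3 SALL genes had lower levels in both split layers than in the unsplit lateral plate, in both birds. In the chick, each member fell in somatopleure and in splanchnopleure. In the emu, each fell in splanchnopleure, whereas for somatopleure the lower values of all 3 did not pass the test. The largest fitted falls were those of SALL3 and SALL1 in emu splanchnopleure, where the means were 4.13 and 33.0 CPM, against 24.2 and 158 CPM in emu lateral plate. SALL4 had the smallest log2 fold change of the members in each of the 3 comparisons with the lateral plate in which they fell.

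**Figure D1:**
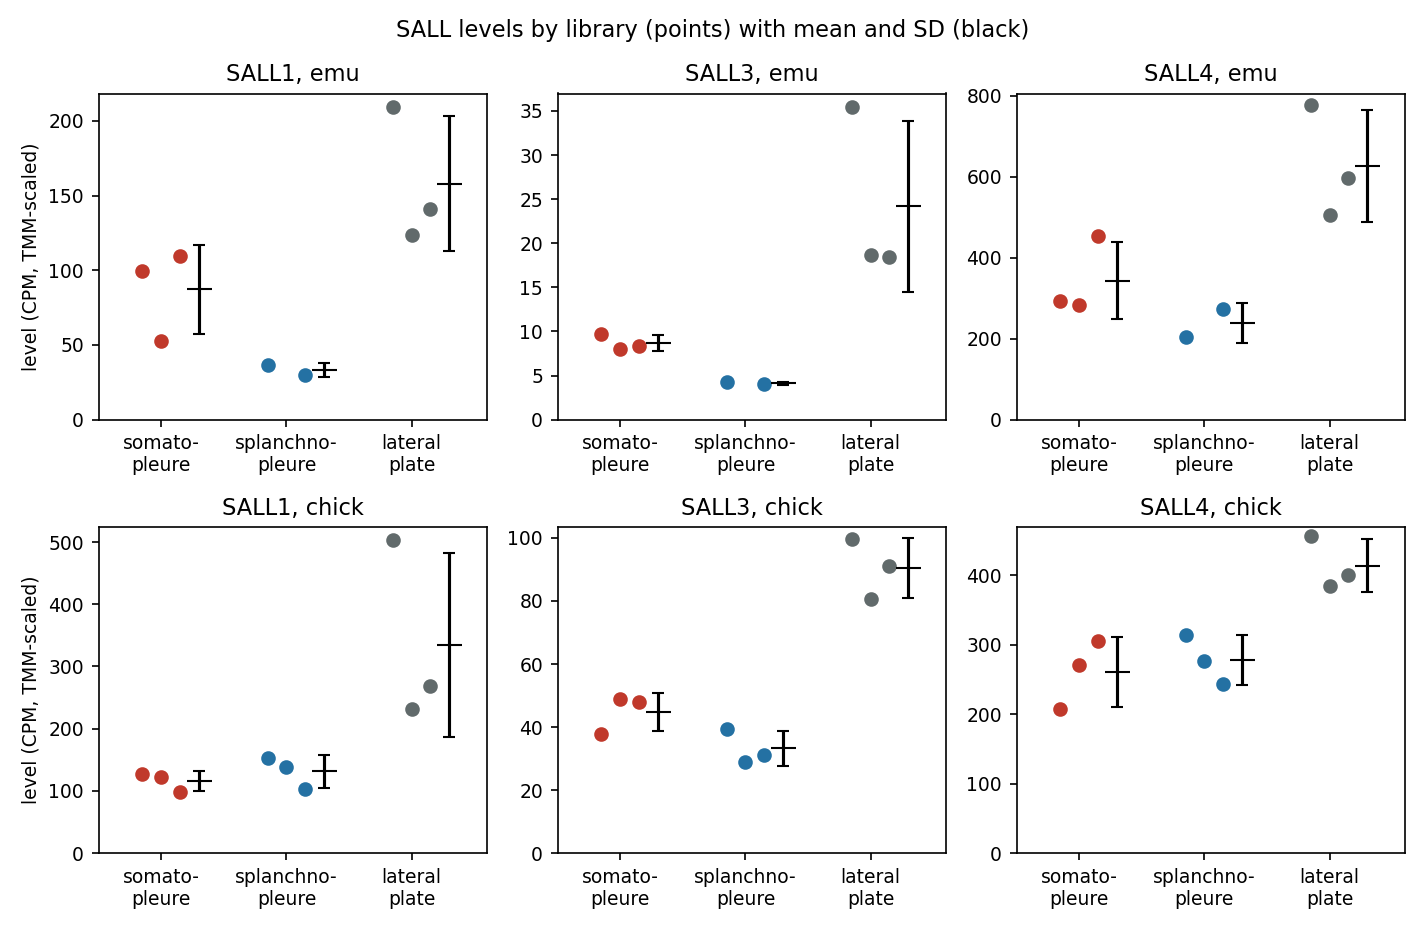
Levels of SALL1, SALL3 and SALL4 in CPM (TMM-scaled, linear axis starting at 0) in each library of emu and chick somatopleure, splanchnopleure and lateral plate, with the mean and SD in black. In every panel the lateral plate libraries lie above all libraries of both split layers; emu SALL3 in splanchnopleure was at 4.25 and 4.01 CPM.

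SALL4, the member tied to the forelimb field and to stem cells in mammals, was measured at 294, 453 and 283 CPM in emu somatopleure 13, 53 and 5, at 204 and 273 CPM in emu splanchnopleure 6 and pool, and at 776, 505 and 597 CPM in emu lateral plate 1, 23 and 8. Every library of both emu layers lay below the lowest lateral plate library, and the lowest somatopleure library, number 5, lay just above splanchnopleure pool. In the chick SALL4 stood at 207, 270 and 306 CPM in somatopleure 15, 60 and 63, at 315, 277 and 243 CPM in splanchnopleure 50, 61 and 64, and at 457, 384 and 401 CPM in lateral plate 30, 31 and 32. Both chick layers lay below the lateral plate and overlapped each other. The emu means were 343 ± 95.3 CPM in somatopleure (SD, n = 3), 238 ± 49.0 CPM in splanchnopleure (n = 2) and 626 ± 138 CPM in lateral plate (n = 3). The chick means were 261 ± 50.0 CPM in somatopleure, 278 ± 35.7 CPM in splanchnopleure and 414 ± 38.2 CPM in lateral plate (n = 3 each).

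SALL1, which in the mouse is needed for the ureteric bud to enter the kidney mesenchyme, was measured at 99.3, 109 and 52.97 CPM in emu somatopleure 13, 53 and 5, at 36.3 and 29.6 CPM in emu splanchnopleure 6 and pool, and at 209, 124 and 141 CPM in emu lateral plate 1, 23 and 8. The 3 emu tissues did not overlap, and somatopleure stood between splanchnopleure and lateral plate. Somatopleure 5 was the lowest library of its tissue for SALL1, as it was for SALL3 and SALL4. This library had the highest somatopleure level of TBX5, the T-box gene that starts the forelimb, at 76.9 CPM. TBX5 was at 10.8 CPM in somatopleure 13 and 6.96 CPM in somatopleure 53. This rests on 1 library, and its part in the result was not tested. In the chick SALL1 stood at 128, 123 and 97.7 CPM in somatopleure 15, 60 and 63, at 153, 138 and 102 CPM in splanchnopleure 50, 61 and 64, and at 504, 231 and 269 CPM in lateral plate 30, 31 and 32. Chick lateral plate 30 lay far above both other libraries of its tissue and is the library that was also highest in somite and presomitic markers, whose part in the result was not tested. Means were 87.1 ± 30.02, 33.0 ± 4.75 and 158 ± 45.3 CPM in emu somatopleure, splanchnopleure and lateral plate, and 116 ± 16.1, 131 ± 26.0 and 335 ± 148 CPM in the same tissues of the chick.

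SALL3, a paralogue whose limb functions overlap those of Sall1 in the mouse, was the member with the fewest reads. In the emu it stood at 9.66, 8.33 and 8.02 CPM in somatopleure 13, 53 and 5, at 4.25 and 4.01 CPM in splanchnopleure 6 and pool, and at 35.4, 18.7 and 18.5 CPM in lateral plate 1, 23 and 8. The 3 emu tissues did not overlap, and lateral plate 1, labelled HH13, lay far above lateral plate 23 and 8. The emu splanchnopleure values rest on 33 and 31 counts, with exact 95% Poisson intervals of 22.7 to 46.3 and 21.1 to 44.0 counts that cover counting error only. In the chick SALL3 stood at 37.8, 48.8 and 48.0 CPM in somatopleure 15, 60 and 63, at 39.3, 29.1 and 31.2 CPM in splanchnopleure 50, 61 and 64, and at 99.5, 80.8 and 91.1 CPM in lateral plate 30, 31 and 32. The chick layers overlapped only in that splanchnopleure 50 exceeded somatopleure 15. Means were 8.67 ± 0.876, 4.13 ± 0.172 and 24.2 ± 9.71 CPM in emu somatopleure, splanchnopleure and lateral plate, and 44.8 ± 6.12, 33.2 ± 5.42 and 90.5 ± 9.40 CPM in the same tissues of the chick.

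The tissues were then compared with edgeR's quasi-likelihood test, with p-values adjusted by Benjamini-Hochberg over all genes tested in a species (10640 in emu, 10071 in chick) and an adjusted p under 0.05 counted as a change. In bulk tissue, fewer cells that express a gene and less RNA per cell cannot be told apart. All folds below are log2 fold changes ± SE of the first tissue over the second.

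In chick somatopleure all 3 members fell relative to lateral plate, where 6.28% of all genes tested fell. SALL1 changed by -1.53 ± 0.26 (adjusted p = 0.00385, edgeR), SALL3 by -1.01 ± 0.15 (adjusted p = 0.00159) and SALL4 by -0.67 ± 0.14 (adjusted p = 0.0123). All 3 were lower in every somatopleure library than in any lateral plate library, which held for 16.1% of the genes tested in that direction. Without lateral plate 30, the library high in SALL1 and in somite markers, SALL1 changed by -1.09 (adjusted p = 0.00521) and SALL3 by -0.92 (adjusted p = 0.0113), while SALL4, at -0.57, no longer passed the test (adjusted p = 0.0630). The sum of splanchnic mesoderm markers was lowest in that same library, at 270 CPM, against 551 and 430 CPM in lateral plate 31 and 32.

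In chick splanchnopleure all 3 members fell as well, where 7.78% of the genes tested fell relative to lateral plate. SALL3 changed most, by -1.45 ± 0.15 (adjusted p = 0.000289, edgeR), followed by SALL1 at -1.35 ± 0.26 (adjusted p = 0.00684) and SALL4 at -0.57 ± 0.14 (adjusted p = 0.0191). The libraries of both tissues did not overlap for any member, as for 19.5% of the genes tested in that direction. SALL1 kept its call without lateral plate 30, at -0.93 (adjusted p = 0.0143), and so did SALL3, at -1.37 (adjusted p = 0.00221). SALL4 lost its call without lateral plate 30 (adjusted p = 0.0814), without lateral plate 32 (adjusted p = 0.0535) or without splanchnopleure 64 (adjusted p = 0.0722).

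In emu splanchnopleure all 3 members fell relative to lateral plate, where 9.21% of the genes tested fell. The change was -2.55 ± 0.36 for SALL3 (adjusted p = 0.00374, edgeR), -2.26 ± 0.35 for SALL1 (adjusted p = 0.00484) and -1.39 ± 0.26 for SALL4 (adjusted p = 0.00957). No library of one tissue overlapped the other for any member, as for 28.7% of the genes tested in that direction with only 2 splanchnopleure libraries. Without emu lateral plate 1 and emu somatopleure 13, the libraries whose stage label departs from their tissue, the changes were -2.17 for SALL3 (adjusted p = 0.0216), -2.003 for SALL1 (adjusted p = 0.0288) and -1.21 for SALL4 (adjusted p = 0.0469). Without splanchnopleure 6 the SALL4 change of -1.20 did not pass (adjusted p = 0.0909). That library had the highest endothelial marker sum, 2206 CPM, against 1083 CPM in splanchnopleure pool, and the part of this in the result was not tested. Some surface ectoderm and neural markers fell with the SALL genes in the same comparison, and endoderm markers did not. Of 10 endoderm markers 8 were tested, of which 2 rose and 0 fell (median log2 fold change 1.23), beside 11.4% of all genes that rose. Their summed level was 323 to 334 CPM in splanchnopleure and 316 to 445 CPM in lateral plate. Of 6 surface ectoderm markers, all tested and none at 0, 4 fell (median log2 fold change -3.25), and their summed level was 74.2 to 89.9 CPM in splanchnopleure, against 222 to 228 CPM in lateral plate. Of 9 neural tube and crest markers, 3 were tested and 2 fell, SOX3 and TFAP2B, with a median of -5.09. SOX1, ZIC1 and ZIC2 were at 0 in both splanchnopleure libraries. The summed level was 699 to 719 CPM in splanchnopleure, against 609 to 763 CPM in lateral plate. In splanchnopleure this sum rests mostly on NES, the tested marker that was not called, and does not follow SOX3 and TFAP2B. The part of these markers in the SALL differences was not tested either. In chick splanchnopleure none of the 6 surface ectoderm markers was called against lateral plate (median log2 fold change -0.52). Their sums were 20.9, 151 and 28.6 CPM in splanchnopleure 50, 61 and 64, and 114 to 137 CPM in lateral plate. Splanchnopleure 50 and 64 thus lay below every lateral plate library, and splanchnopleure 61 above.

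In emu somatopleure none of the members passed the test against lateral plate, and neither did any other of the 10640 genes (0%), although 1107 had an unadjusted p under 0.05 in edgeR and DESeq2 called 140. The values were -1.48 ± 0.29 for SALL3 (adjusted p = 0.270), -0.87 ± 0.23 for SALL4 (adjusted p = 0.315) and -0.86 ± 0.28 for SALL1 (adjusted p = 0.372), with unadjusted edgeR p-values of 0.000686, 0.00395 and 0.0140. DESeq2 called SALL3 (adjusted p = 0.00274) and SALL4 (adjusted p = 0.0210), and not SALL1 (adjusted p = 0.109). All 3 members were lower in every somatopleure library than in any lateral plate library, as were 8.49% of the genes tested. Leaving out both libraries with a departing stage label gave -1.18 for SALL3, -0.71 for SALL1 and -0.58 for SALL4, with adjusted p-values of 0.825, 0.920 and 0.920.

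**Figure D2:**
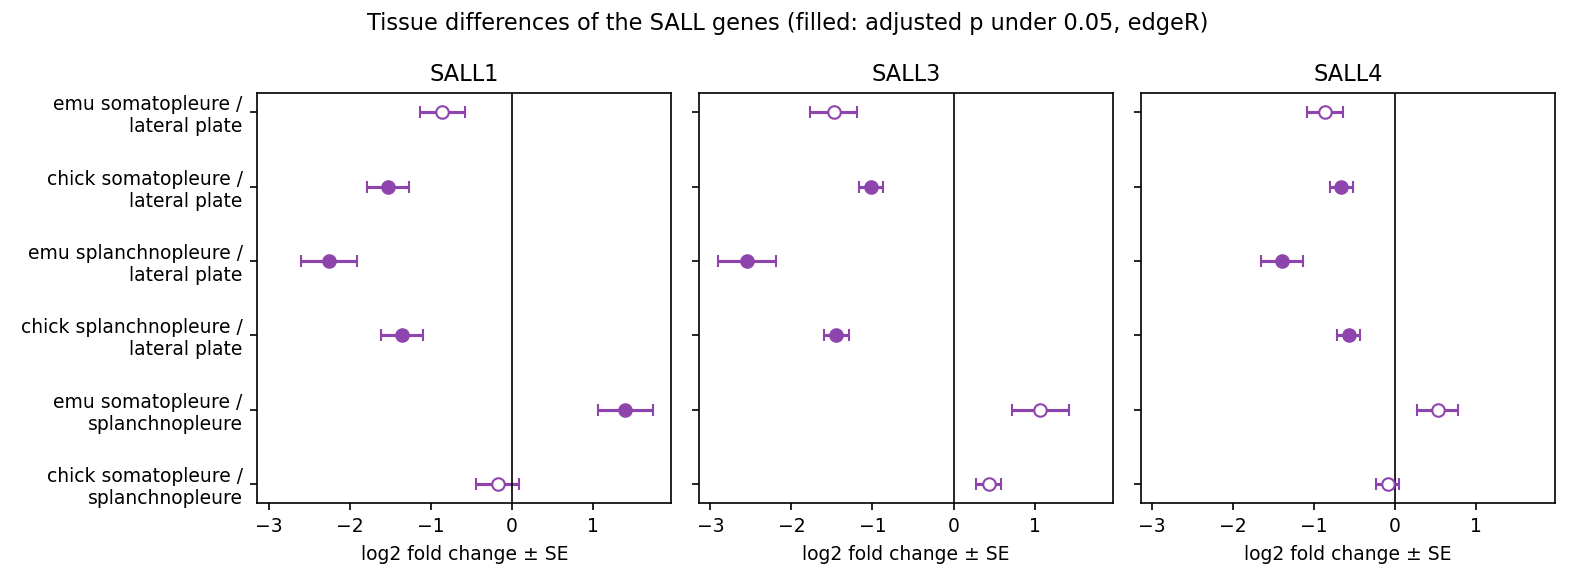
Log2 fold changes (first tissue over second, with SE bars) of SALL1, SALL3 and SALL4 in the tissue comparisons of emu and chick; filled points passed an adjusted p of 0.05 in edgeR. All members lie below 0 against lateral plate in both layers of both species, the farthest being SALL3 at -2.55 in emu splanchnopleure; between the layers only SALL1 of the emu, at 1.40, is filled.

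Between the split layers, SALL1 of the emu was the only member called by edgeR with all libraries. In the emu SALL1 was higher in somatopleure than in splanchnopleure by 1.40 ± 0.34 (adjusted p = 0.0298, edgeR), in a comparison in which 5.05% of the genes tested were higher. SALL3 differed by 1.07 ± 0.35 (adjusted p = 0.0767) and SALL4 by 0.53 ± 0.25 (adjusted p = 0.200) in the same direction, and neither passed the test. For all 3 members each emu somatopleure library lay above both splanchnopleure libraries, as for 23.2% of the genes tested. The SALL1 call was lost on leaving out lateral plate 8 (adjusted p = 0.0505), somatopleure 13 (0.0767), somatopleure 53 (0.0668), splanchnopleure 6 (0.143) or splanchnopleure pool (0.115), all edgeR adjusted p-values, and SALL3 gained a call on leaving out lateral plate 1 (adjusted p = 0.0450). In the chick no member passed the test between the layers. SALL1 differed by -0.18 ± 0.26 (adjusted p = 0.681), SALL4 by -0.092 ± 0.14 (adjusted p = 0.694) and SALL3 by 0.43 ± 0.15 (adjusted p = 0.0698). SALL3 passed with DESeq2 (adjusted p = 0.0461) and without somatopleure 15 (adjusted p = 0.0257) or splanchnopleure 50 (adjusted p = 0.0274), the pair of chick libraries in which the layers overlapped.

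The order of the tissues by SALL level was thus lateral plate, somatopleure, splanchnopleure for all members in the emu and for SALL3 in the chick. In the chick the order of the layers was the other way round for SALL1 and SALL4, with means of 116 CPM in somatopleure and 131 CPM in splanchnopleure for SALL1, and 261 and 278 CPM for SALL4. The neighbouring tissues in this order whose difference did not pass the test were somatopleure and lateral plate in the emu for each member, somatopleure and splanchnopleure in the emu for SALL3 and SALL4, and somatopleure and splanchnopleure in the chick for each member.

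Whether a tissue difference itself differed between emu and chick was tested by an interaction term over both species, on the 9736 genes that passed the filter in each table. No member passed in any of the 3 comparisons, in which 2.96% (somatopleure against lateral plate), 9.57% (splanchnopleure against lateral plate) and 5.46% (somatopleure against splanchnopleure) of genes were called. The nearest was SALL1 between the layers, with an emu minus chick difference in log2 fold change of 1.59 ± 0.47 (adjusted p = 0.0586, edgeR). For splanchnopleure against lateral plate the difference was -1.11 ± 0.36 for SALL3 (adjusted p = 0.0615), -0.83 ± 0.30 for SALL4 (adjusted p = 0.0943) and -0.92 ± 0.46 for SALL1 (adjusted p = 0.225), all toward a larger fall in the emu. For somatopleure against lateral plate it was 0.68 ± 0.42 for SALL1, -0.46 ± 0.31 for SALL3 and -0.20 ± 0.28 for SALL4, with adjusted p-values of 0.442, 0.483 and 0.782. Between the layers SALL3 and SALL4 differed by 0.65 ± 0.37 (adjusted p = 0.333) and 0.63 ± 0.30 (adjusted p = 0.245).

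Some of these misses were close to the threshold and moved with the settings. SALL1 between the layers passed with DESeq2 (adjusted p = 0.00966), without emu somatopleure 5 (0.0165), without chick lateral plate 30 (0.0287) and without the highest lateral plate library of each species (0.0217), the last chosen after seeing the data. SALL3 in splanchnopleure against lateral plate passed with DESeq2 (adjusted p = 0.0370), with scaling by library totals (0.0467), and without emu lateral plate 23 (0.0413) or 8 (0.0394). SALL4 in that comparison passed when the fit held only both tissues compared (adjusted p = 0.0405).

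Ratios between members within a library do not depend on its depth and show whether the members moved by the same proportion. The ratio of SALL3 to SALL4 counts separated all 3 chick tissues without overlap, at 0.157 to 0.183 in somatopleure, 0.105 to 0.128 in splanchnopleure and 0.210 to 0.227 in lateral plate. In the emu it was 0.0184 to 0.0329 in somatopleure, 0.0147 to 0.0209 in splanchnopleure and 0.0310 to 0.0456 in lateral plate, so that splanchnopleure lay below lateral plate and the other pairs overlapped. The ratio was thus lower in every library of chick somatopleure, chick splanchnopleure and emu splanchnopleure than in any lateral plate library of that bird. The ratio of SALL1 to SALL4 counts was 0.109 to 0.178 in emu splanchnopleure, below 0.236 to 0.269 in emu lateral plate, and 0.421 to 0.499 in chick splanchnopleure, below 0.601 to 1.10 in chick lateral plate. In somatopleure the same ratio was 0.187 to 0.338 in the emu and 0.320 to 0.617 in the chick, and in both birds it overlapped the lateral plate range. Of 18 two-sided exact permutation tests of these ratios none passed after adjustment, because 3 libraries against 3 or 2 cannot give a p below 0.1, and the lowest adjusted p was 0.3. How often the ratios of other gene pairs separate these tissues without overlap was not tested, so the separations are descriptions only. The ratio of SALL1 to SALL3 counts overlapped in all 6 tissue comparisons, with exact two-sided permutation p-values of 0.2 to 0.6. Its mean log2 difference ran from -0.60 (chick somatopleure against splanchnopleure) to 0.53 (emu somatopleure against lateral plate). With so few libraries, the tests cannot show whether SALL1 and SALL3 moved by the same proportion.

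**Figure D3:**
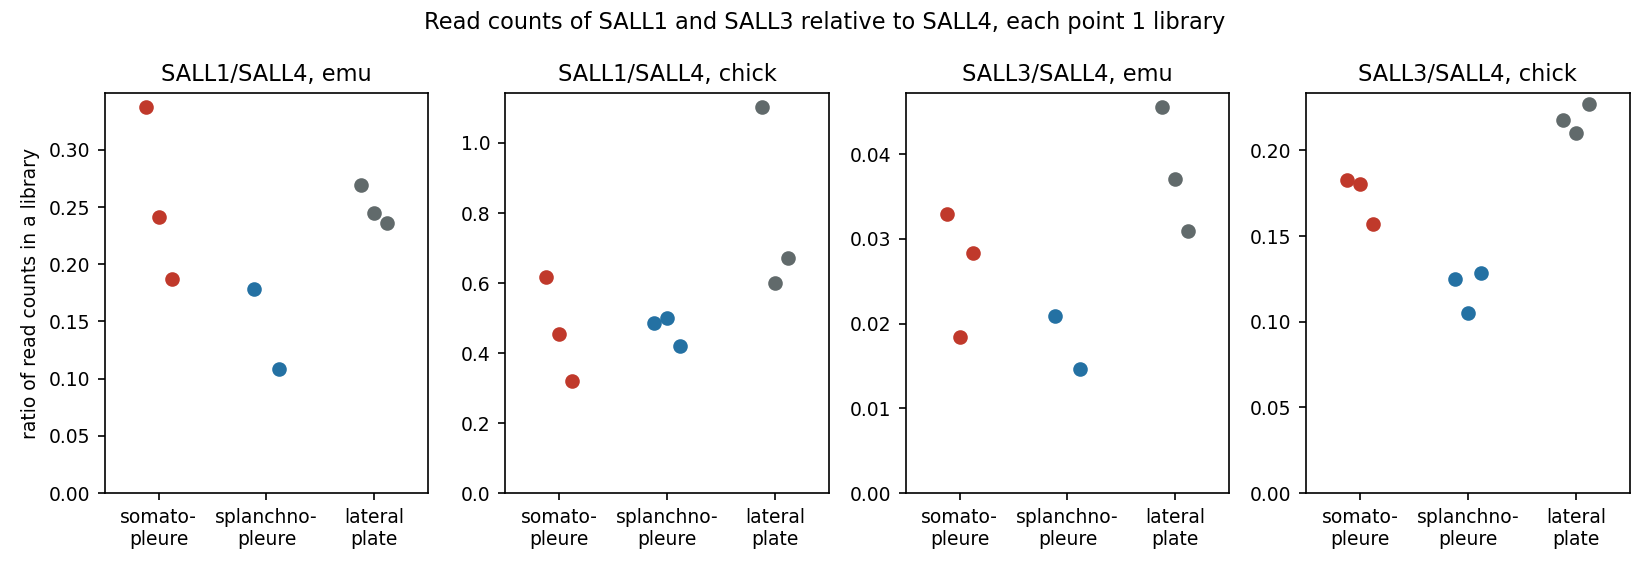
Ratio of SALL1 to SALL4 and of SALL3 to SALL4 read counts (linear axes from 0) in each library of somatopleure, splanchnopleure and lateral plate of emu and chick. The 3 chick tissues do not overlap in the SALL3 to SALL4 ratio, with lateral plate at 0.210 to 0.227 on top; ratios are not comparable between species or between ratios, since gene lengths enter them.

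Genes with a profile like that of each member were sought by the root mean square difference in log2 CPM, centred within each species, over the 17 libraries and 9117 genes. SALL1 was nearest to LIN28A, an RNA-binding protein that blocks let-7 microRNA maturation in early cells, with a difference of 0.37 (r = 0.90), against 0.83 for a gene that does not vary. Next came SALL3 at 0.38, TERT, the catalytic subunit of telomerase, at 0.38, KIAA1462 at 0.40 and SPATA13 at 0.41. For SALL3 the nearest gene was SALL1, followed by KIAA1462 and TERT at 0.40, IL17RD, an inhibitor of FGF signalling, at 0.42 and LIN28A at 0.42. The genes nearest to SALL4 by this measure were TMEM120B, TRIM71, EXO1 and PRKX all at 0.26 and TRMT1L at 0.28, against 0.50 for a gene that does not vary; TRIM71 is a ubiquitin ligase and let-7 target, and EXO1 a DNA exonuclease. These likenesses are descriptions over 17 libraries that share species and tissue. Ranking by Pearson's r instead left 3 of the 5 genes for SALL1 and 0 of the 5 for SALL3 and SALL4, so the single names rest on the measure. By Pearson's r the 5 genes nearest to SALL4 included LIN28A (r = 0.90) and SALL3 (r = 0.90), so the members are not set apart by these lists.

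**Figure D4:**
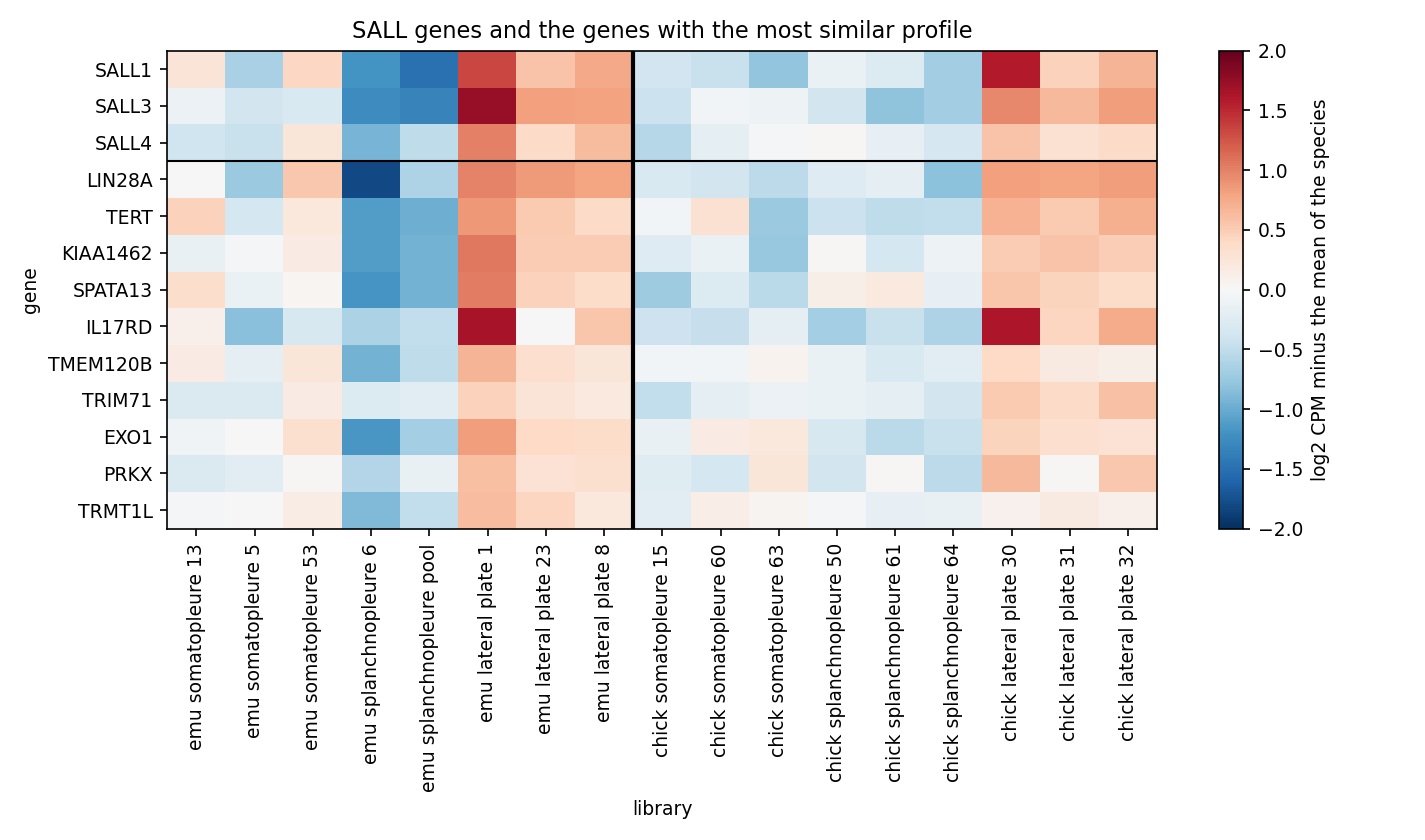
Log2 CPM minus the mean of the species for the SALL genes and the genes with the most similar profile (rows) in the 17 early libraries (columns, emu left of the black line, chick right of it); colour gives the value. The lateral plate columns are high and the splanchnopleure columns of the emu low in nearly every row; LIN28A averaged 141 CPM in emu splanchnopleure, against 551 CPM in emu lateral plate.

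LIN28A illustrates the shared shape in levels. It averaged 305 ± 128 CPM in somatopleure, 141 ± 77.2 CPM in splanchnopleure and 551 ± 40.8 CPM in lateral plate of the emu, and 346 ± 23.7, 348 ± 80.4 and 803 ± 14.2 CPM in the same tissues of the chick. LIN28A is also on a list of 11 pluripotency network genes, of which 4 were tested in each species. In emu splanchnopleure 3 of these 4 fell relative to lateral plate (SOX3, LIN28A and LIN28B; background 9.21%), with LIN28A at -1.97 ± 0.41 (adjusted p = 0.0134, edgeR), LIN28B, its paralogue, at -1.11 ± 0.17 (adjusted p = 0.00457), and SOX3, a SoxB transcription factor, at 0.194 ± 0.274 CPM in splanchnopleure against 9.01 ± 1.08 CPM in lateral plate (adjusted p = 0.00396). SOX3 is also among the neural tube and crest markers given above, so its call belongs to both lists. LIN28A was named above for its likeness to SALL1 in these same libraries. Its falls against lateral plate here and below, and the list counts and medians that include it, are therefore no independent result. In chick somatopleure 1 of the 4 fell relative to lateral plate, LIN28A (-1.21, adjusted p = 0.000391, edgeR), beside 6.28% of all genes. In chick splanchnopleure 2 of the 4 fell, beside 7.78% of all genes, namely LIN28A (-1.21, adjusted p = 0.000548) and LIN28B (-0.66, adjusted p = 0.0156). KLF4, another stem cell factor, was lower in chick somatopleure than in chick splanchnopleure (-1.55, adjusted p = 0.0218, edgeR) and LIN28B was higher (0.80, adjusted p = 0.00428). Of all genes, 11.8% were lower and 7.34% higher in that comparison. In the emu LIN28B was likewise higher in somatopleure than in splanchnopleure (0.69, adjusted p = 0.0305, edgeR), and so was SOX3, beside 5.05% of all genes. The median log2 fold change of the list in emu splanchnopleure against lateral plate was -1.54, beside 0.0033 over all genes tested. Against lateral plate the list medians were -0.64 in emu somatopleure, -0.57 in chick somatopleure and -0.93 in chick splanchnopleure.

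From work in the mouse, Sall4 belongs to the forelimb circuit of Tbx5, which also holds FGF10, the ligand that drives bud outgrowth, and GLI3, a hedgehog effector. A wider list of 23 limb genes, called circuit genes below, also held genes such as TBX4, LMX1B and MSX1. Of these 23, 15 were in the tables and 12 were tested. In chick somatopleure 4 rose and 2 fell relative to lateral plate (3.52% of all genes rose and 6.28% fell). The calls with the largest fitted changes included TBX5, at 6.25 ± 0.69 (adjusted p = 0.000295, edgeR) with 132 ± 8.62 CPM in somatopleure and 1.82 ± 1.25 CPM in lateral plate, and FGF8, which fell to 4 counts in all somatopleure libraries, against 115 in all lateral plate libraries (adjusted p = 0.0344). WNT2B, a forelimb field WNT ligand, rose by 3.55 ± 0.56 (adjusted p = 0.00246). MSX2, a homeobox gene, rose by 1.95 ± 0.32 (adjusted p = 0.00282). TBX5 rose and all 3 SALL genes fell in chick somatopleure. In chick splanchnopleure 1 circuit gene, TBX5, rose by 2.56 ± 0.76 (adjusted p = 0.0407; 9.07% of all genes rose and 7.78% fell), and 5 fell, among them PRRX1, a mesenchyme homeobox gene (-1.76, adjusted p = 0.0248), FGF10 (-1.67, adjusted p = 0.0110) and FGF8, which had 0 counts there. FGF10 in chick somatopleure was at 20.9 ± 2.93 CPM against 11.1 ± 5.42 CPM in lateral plate, which did not pass (0.89 ± 0.32, adjusted p = 0.113).

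In emu splanchnopleure 3 of the 12 circuit genes fell relative to lateral plate and none rose (9.21% of all genes fell and 11.4% rose), with LMX1B, which patterns the dorsal limb, at -3.66 ± 0.71 (adjusted p = 0.0102, edgeR), MSX1 at -1.78 ± 0.29 (adjusted p = 0.00591) and LEF1, a WNT effector, at -1.60 ± 0.30 (adjusted p = 0.00927). Between the emu layers 4 were higher in somatopleure, namely LMX1B (3.78), PRRX1 (2.39), MSX1 (1.65) and LEF1 (1.35), beside 5.05% of all genes, and none was lower. Between the chick layers 7 were higher in somatopleure, led by WNT2B (3.71), TBX5 (3.69), PRRX1 (3.39) and MSX2 (2.59) and including FGF10 (2.56), and ZBTB16 was lower (-1.03), beside 7.34% of all genes higher and 11.8% lower. WNT2B, TBX5 and PRRX1 are also among the somatic mesoderm markers given above, so their calls, here and above, belong to both lists. Emu TBX5 was at 31.5 ± 39.3 CPM in somatopleure, 13.6 ± 16.5 CPM in splanchnopleure and 3.64 ± 3.85 CPM in lateral plate, and emu FGF10 at 0.688 ± 0.511, 0.838 ± 0.819 and 3.45 ± 3.66 CPM; neither was called in the emu. GLI3 was called in no tissue comparison of either bird, with means from 73.1 CPM in emu splanchnopleure to 108 CPM in chick somatopleure. WNT2B was the only one of the 12 circuit genes whose tissue difference itself differed between the birds. The difference (emu minus chick) was -3.63 ± 0.67 for somatopleure against lateral plate (adjusted p = 0.0107, edgeR), beside 2.96% of all genes called. Between the layers it was -3.75 ± 0.70 (adjusted p = 0.00650), beside 5.46% of all genes.

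**Figure D5:**
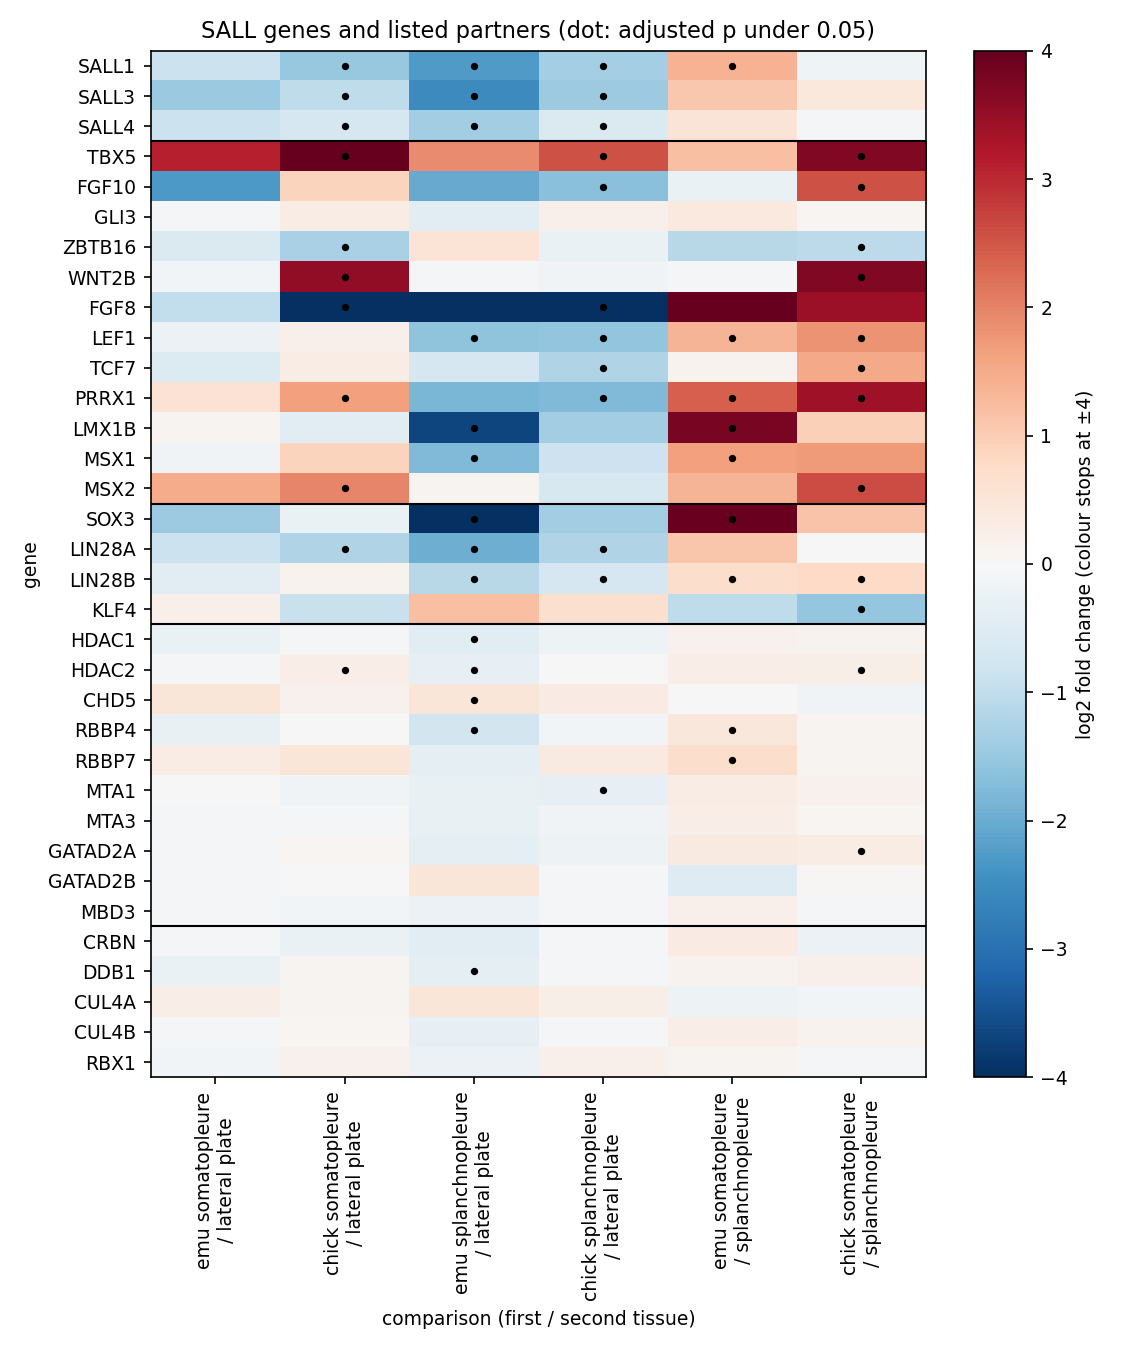
Log2 fold changes (colour, stopping at 4 either way) of the SALL genes and of the listed partner genes (rows) in the tissue comparisons of emu and chick (columns, first tissue over second); a dot marks an adjusted p under 0.05 in edgeR. The SALL rows are below 0 against lateral plate throughout, while TBX5 is above 0, reaching 6.25 in chick somatopleure.

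The tested subunits of NuRD, through which SALL proteins repress genes, had small fold changes. Of 14 listed genes 10 were tested. CHD3, CHD4, MTA2 and MBD2 had no row under these symbols, so nothing is said about them. In emu splanchnopleure 3 fell relative to lateral plate, the histone binding subunit RBBP4 (-0.75, adjusted p = 0.00600, edgeR) and the deacetylases HDAC1 (-0.42, adjusted p = 0.0297) and HDAC2 (-0.32, adjusted p = 0.0493), and the remodeller CHD5 rose by 0.48 (adjusted p = 0.0410), beside 9.21% of all genes that fell and 11.4% that rose. RBBP4 was at 442 ± 66.3 CPM in emu splanchnopleure and 742 ± 38.0 CPM in emu lateral plate. Its fall differed from the value in the chick by -0.65 ± 0.12 (adjusted p = 0.00575, edgeR), beside 9.57% of all genes called for that species difference. In the chick 1 of the 10 rose in somatopleure (HDAC2, 0.27, adjusted p = 0.0400; 3.52% of all genes rose) and 1 fell in splanchnopleure (MTA1, a scaffold subunit, -0.32, adjusted p = 0.0369; 7.78% of all genes fell). Between the layers RBBP7 (0.71) and RBBP4 (0.46) were higher in emu somatopleure (5.05% of all genes), and GATAD2A (0.28) and HDAC2 (0.25) in chick somatopleure (7.34% of all genes). HDAC1 was called in no chick comparison, with 306 ± 19.1 CPM in somatopleure, 276 ± 23.6 CPM in splanchnopleure and 319 ± 4.95 CPM in lateral plate. The median log2 fold changes of the list lay between -0.31 and 0.25 in the tissue comparisons.

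The cereblon ligase, the complex that thalidomide directs to SALL4 in human cells, had 5 listed genes, all tested. CRBN, its substrate receptor, was called in no comparison and had 35.3 ± 5.61 CPM in somatopleure, 28.1 ± 0.437 CPM in splanchnopleure and 37.6 ± 2.09 CPM in lateral plate of the emu, and 12.9 ± 0.348, 15.2 ± 1.18 and 15.6 ± 1.60 CPM in the chick. The adaptor DDB1 fell in emu splanchnopleure relative to lateral plate (-0.38 ± 0.11, adjusted p = 0.0370, edgeR), where 9.21% of all genes fell. It was the only call on this list in the 6 tissue comparisons. Of 15 genes listed for the kidney field, where Sall1 acts in the mouse, 7 were tested. Relative to lateral plate 3 of them fell in emu splanchnopleure (9.21% of all genes fell), 1 in chick somatopleure (6.28%) and 2 in chick splanchnopleure (7.78%), and none rose. RET, the receptor that guides the ureteric bud, fell relative to lateral plate in emu splanchnopleure (-2.88, adjusted p = 0.0274), in chick somatopleure (-1.61, adjusted p = 0.0472) and in chick splanchnopleure (-3.85, adjusted p = 0.00146). GATA3 and WNT4 fell in emu splanchnopleure (-2.74, adjusted p = 0.0156, and -1.37, adjusted p = 0.0285), and EYA1 fell in chick splanchnopleure (-2.31, adjusted p = 0.0209). Between the layers GATA3 and SIX4 were higher in emu somatopleure, by 2.32 (adjusted p = 0.0359, edgeR) and 0.51 (adjusted p = 0.0491), beside 5.05% of all genes. RET was higher in chick somatopleure, by 2.24 (adjusted p = 0.0145), beside 7.34% of all genes.

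The genes that lie next to the SALL genes were also looked up. Of the 12 protein-coding neighbours, 2 on either side of each member in the RefSeq annotation of the chicken (GRCg7b), 9 were in the tables and tested; this look-up was added after the SALL values had been seen. Beside SALL1, TOX3 fell in chick somatopleure (-1.16 ± 0.19, adjusted p = 0.00295, edgeR) and in chick splanchnopleure (-0.64 ± 0.19, adjusted p = 0.0392), whereas CHD9 rose in emu splanchnopleure by 0.54 ± 0.11 (adjusted p = 0.0141). Beside SALL3, NFATC1 fell in chick somatopleure (-2.84 ± 0.47, adjusted p = 0.00330). Beside SALL4, TSHZ2, itself a zinc finger gene, rose in emu splanchnopleure by 1.82 ± 0.54 (adjusted p = 0.0432), in chick somatopleure by 1.31 ± 0.29 (adjusted p = 0.0148) and in chick splanchnopleure by 2.14 ± 0.29 (adjusted p = 0.00135). Of the 9 neighbours, 2 rose and 0 fell in emu splanchnopleure relative to lateral plate (11.4% of all genes rose and 9.21% fell), 1 rose and 2 fell in chick somatopleure (3.52% and 6.28%), and 1 rose and 1 fell in chick splanchnopleure (9.07% and 7.78%). Between the chick layers 0 were higher and 2 lower in somatopleure (7.34% and 11.8%), namely CHD9 (-0.55) and NFATC1 (-1.67), and none was called between the emu layers or in emu somatopleure against lateral plate. With 9 genes, these counts are too few to set the neighbours apart from all genes tested.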

How the data were processed

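The deposited files are whole-number read counts per gene, which the authors made with STAR and featureCounts on galGal4, per the submitters' processing notes, which also name DESeq and give no versions; which genome the emu reads were mapped to is not stated there. RNA was purified on columns and libraries were made from small RNA inputs, per the labels' protocols. The 17 columns of the early tables were used; the later tables, 18 columns at HH18, hold identifiers without symbols and were not used. Emu genes carry chick symbols, so levels also depend on annotation and length. Strand use in counting is not stated either.

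Counts were tested with edgeR 4.0.16 (limma 3.58.1, R 4.3.3): TMM, filterByExpr (minimum count 10, minimum total 15), quasi-likelihood test, all early tissues of a species in 1 fit, two-sided, Benjamini-Hochberg over all genes tested, threshold 0.05. The species fit used genes that passed in each table. The biological coefficient of variation was 0.221 in emu and 0.168 in chick. Replicates of each tissue differed by more than counting noise, with a chi-square over genes of at least 3.95 times its degrees of freedom. DESeq2 1.42.0, other scalings, no filter, left-out libraries, a fit of only the compared tissues and, for the species fit, a joint filter were alternatives. The script was tested on simulated data for somatopleure against lateral plate. Changes were given only to genes with a mean expected count above 50 per library. Apart from these changes, each gene had 1 mean share in all tissues and its fitted dispersion. The numbers recovered therefore do not give the power of the real comparisons, least of all for genes with few counts. Of 100 genes given a log2 fold change of 1, it recovered 58 in emu, 80 in chick and 50 for the species difference. For a log2 fold change of 2 the counts were 100, 100 and 91. False calls numbered 15, 13 and 11 in the same order. As a share of recovered genes and false calls together, this exceeded 0.05 in each simulation. Figures were drawn with matplotlib 3.10.9.

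The members and the 14 gene lists were chosen with earlier results of these data known. Named were the members, list genes past the threshold (at most 4 per list and comparison, by size of change), TBX5, FGF10, GLI3, HDAC1 and CRBN, and the 5 most similar genes per member (prior count 2, mean log2 CPM of at least 1 in each species).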

Additional observations from a re-analysis of the deposited data

How the results depend on the processing

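The planned settings were scaling by RLE or library totals, DESeq2, no filter, leaving out single libraries or both libraries with a departing stage label, and fits of only both tissues compared. For the species differences, unplanned settings were added. These were a low-count filter applied to both species jointly, and leaving out the highest lateral plate library of each species. Across all these settings the SALL log2 fold changes kept their side of 0 and of the threshold in 447 values. Another 15 gained and 12 lost a call, all named with the results above or below, and 3 turned. SALL4 between the chick layers was -0.092 and ranged from -0.22 to 0.061 on leaving out single libraries, and its species difference for somatopleure against lateral plate was 0.093 without both libraries with a departing stage label. SALL1 between the emu layers also lost its call without both of those libraries (adjusted p = 0.0789, edgeR) and in the fit of only both layers (adjusted p = 0.0646). No SALL level moved by more than 1 SD when CPM used library totals.

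Counts of genes called moved more. DESeq2 called 140 genes for emu somatopleure against lateral plate, where edgeR called 0, and 585 and 842 for the species differences of somatopleure against lateral plate and against splanchnopleure, where edgeR called 288 and 532. Without both libraries with a departing stage label the counts were 654 for emu splanchnopleure against lateral plate (2196 with them), 453 between the emu layers (1424), and 97 and 575 for the species differences of somatopleure and splanchnopleure against lateral plate (288 and 932). Fits of only both tissues gave 562 between the emu layers and 253 for the species difference between layers (532). Without the highest lateral plate library of each species, chosen after seeing the data, the species differences had 63 and 290 calls. Leaving out single libraries gave 0 to 1 calls for emu somatopleure against lateral plate, 353 to 2511 for emu splanchnopleure against lateral plate, 263 to 1578 between the emu layers, 581 to 1055, 816 to 2231 and 1192 to 2164 for the chick comparisons in the same order, and 146 to 349, 241 to 1094 and 213 to 719 for the species differences. The causes were not tested. In fits that leave 1 emu splanchnopleure library, it is assumed to vary like the other groups.

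No paired analysis was possible because the early tissues share no replicate numbers. Levels per kilobase were not run. Depth limits SALL3 most, with 31 to 33 counts per emu splanchnopleure library.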
